A study of Mus musculus with 7 samples.

Results

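The immunoglobulin light-chain variable (V) genes were described in RNA-Seq of mouse knee tissue, as the share that each gene took of all light-chain V counts. Genes were chosen by symbol, beginning with Igkv (kappa) or Iglv (lambda), and selected on their measured counts, of which 10 or more were needed in at least 2 of the 7 samples. This gave 99 genes out of 163 light-chain V genes in a table of 55401 genes, of which 96 were kappa and 3 were lambda. The samples came from male C57BL/6J mice operated at 10 weeks of age by destabilization of the medial meniscus (DMM), a surgical model of osteoarthritis, and were collected 2 weeks later. By the labels, 4 samples were WT and 3 were Trpc1-/-. The Trpc1-/- mice carry a Trpc1 allele that lacks an exon in every cell of the body, and the WT controls were bred in the same colony. Every sample had been through DMM, so that neither genotype has an unoperated control here. Each sample pooled 2 to 3 knees, and the study's methods name subchondral bone as well as cartilage.

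Each antibody has heavy and light chains, and each light chain begins with a V region. In a developing B cell of the bone marrow, the RAG recombinase joins 1 V gene to a short joining (J) segment, first at the kappa locus and, when that fails, at the lambda locus. A mature B cell or plasma cell therefore transcribes 1 productive light chain, and the spread of counts over V genes reflects the mixture of B-lineage clones in a tissue. Plasma cells transcribe their light chain at a very high level. Bone marrow, which lies next to the subchondral bone, holds B-cell precursors, B cells and plasma cells. In bulk RNA, fewer cells of a type and less RNA per cell cannot be told apart.

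The last bases of a V exon form the start of the third complementarity determining region (CDR3), the loop in which light chains differ most at the V to J joint. They are shown for the 12 genes on which the results turn: the leading kappa gene, the 3 lambda genes, and the 8 genes with the smallest P between genotypes. The sequences are from GENCODE M21 transcripts (GRCm38), on the coding strand, and are germline sequences, not read from the samples. Each starts 27 bases before the codon of the conserved cysteine, and capitals mark the bases from that codon to the end of the annotated V exon.
Igkv15-103: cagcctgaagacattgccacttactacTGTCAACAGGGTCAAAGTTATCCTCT
Iglv1: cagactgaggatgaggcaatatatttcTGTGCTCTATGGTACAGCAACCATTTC
Iglv2: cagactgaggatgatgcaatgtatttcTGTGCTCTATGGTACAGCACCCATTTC
Iglv3: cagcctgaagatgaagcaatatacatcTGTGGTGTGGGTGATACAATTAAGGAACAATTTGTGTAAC
Igkv9-124: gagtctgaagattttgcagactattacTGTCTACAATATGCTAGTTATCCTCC
Igkv3-4: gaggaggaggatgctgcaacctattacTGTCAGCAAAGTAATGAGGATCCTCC
Igkv3-5: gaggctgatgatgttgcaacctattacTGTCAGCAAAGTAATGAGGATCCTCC
Igkv3-10: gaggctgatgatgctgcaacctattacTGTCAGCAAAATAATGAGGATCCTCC
Igkv3-2: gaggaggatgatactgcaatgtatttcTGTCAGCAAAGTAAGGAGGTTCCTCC
Igkv14-100: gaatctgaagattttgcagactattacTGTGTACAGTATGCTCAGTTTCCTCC
Igkv6-32: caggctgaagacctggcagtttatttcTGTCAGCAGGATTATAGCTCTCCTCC
Igkv8-24: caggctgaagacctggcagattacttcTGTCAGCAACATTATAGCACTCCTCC

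The capitals of Igkv3-4 and Igkv3-5 are identical, and those of Igkv8-24 are shared with Igkv6-25. In all, 9 such ends were each shared by 2 or more genes, which took in 19 of the 95 genes whose end could be located. Over the whole annotated transcript, the genes had a median identity of 95.1% with their nearest relative among the light-chain V genes, and 13 had 97% or more. Of the 99 genes, 64 shared at least 1 stretch of 75 bases, the read length, with another light-chain V gene. In 0 genes were most of the possible start positions of such a stretch shared. The bases covered by shared stretches make up a larger part of a gene than these start positions do. Reads from these stretches can be assigned to either gene, so values of single genes are less certain than family sums.

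All 99 genes matched GENCODE M21 by identifier, 95 as V genes and 4 as V pseudogenes. The pseudogenes together took between 0.196% and 0.529% of the light-chain V counts of a sample. The 64 genes that were not included were mostly pseudogenes (56), and the included genes held 99.7% of all light-chain V counts, 131410 in total. The last gene inside the count rule was Igkv3-9, whose second highest sample had 12 counts, and the first outside was Igkv14-118-2, with 9. Of the 99 genes, 58 had 10 or more counts in every sample, 94 met the rule by the WT samples alone and 94 by the Trpc1-/- samples alone.

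The total count per sample was 52142451 to 118254070, lowest in WT replicate 1. The targeted gene Trpc1 was measured at 4.81, 4.54, 4.76 and 4.32 CPM (counts scaled to a common library size by the TMM method of edgeR) in WT replicates 1 to 4. It was at 3.34, 3.78 and 3.03 CPM in Trpc1-/- replicates 1 to 3, so every Trpc1-/- sample lay below every WT sample. An allele that lacks 1 exon can still be transcribed.

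WT replicate 1 stood apart from the other samples before any comparison. Its light-chain V genes had 2879 counts, against 20154, 26383 and 17582 in the other WT samples and 22480, 19778 and 22154 in the Trpc1-/- samples. Scaled to the library, this was 60.5 CPM in WT replicate 1 and 183 to 226 CPM in the other 6 samples. A level of 3 counts, taken as the floor of detection, was 0.104% of its light-chain V counts and at most 0.0171% of those of any other sample, and 21 of the 99 genes were at 0 there, 19 of them in that sample alone. The chondrocyte markers summed to 4673 CPM in WT replicate 1, within the range of the other samples (2469 to 4747). Its neutrophil markers summed to 4821 CPM against 11602 to 15716 elsewhere. Its osteoblast markers (13453 CPM against 5730 to 9989) and muscle markers (900 CPM against 47.5 to 761) were the highest of the 7 samples. Where leaving it out changed a result below, the value without it is given.

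WT replicates 2 and 3 were nearly alike in light-chain V usage, more than any other 2 samples. The mean chi-square per gene between them was 2.39 among the 99 genes, where 1 is expected of repeated draws of independent reads, and about 2 if both reads of a pair are counted. In the other 20 pairs of samples it lay between 14.6 and 57.7. Each mean took in only the genes with a summed count of 20 or more in that pair, so the genes may differ between pairs. To make the shares of WT replicates 2 and 3 equal, 4.27% of the counts of 1 sample would have to move between genes, against 19.2% to 34.97% in the other pairs. The 95% intervals of the 2 samples overlapped in 92 of 99 genes (other pairs 39 to 59), and 49 of the 52 genes with a mean share of at least 0.5% were within 1.5-fold of each other (other pairs 16 to 33).

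For the heavy-chain V genes, the partner chains of the same antibodies, WT replicates 2 and 3 were also the closest pair. Among 108 heavy-chain V genes, with the same limit of counts per pair, the chi-square per gene was 2.09 for WT replicates 2 and 3 and 10.8 to 58.6 for the other pairs. Among 18 T-cell receptor V genes, less those under that limit, it was 0.849, within the 0.542 to 6.32 of the other pairs. Over 8832 other genes in the same range of counts it was 6.49 for WT replicates 2 and 3 and 9.71 to 50.3 for the other pairs. This pair was thus the closest there too, at a value above that of repeated draws. The labels give these samples different mouse numbers, 1 in the 1300s and 1 in the 1700s, and each was pooled from several knees. Whether they share animals or RNA was not tested. They were kept as 2 samples, and the comparisons were repeated with their counts summed to 1 sample.

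**Figure D1:**
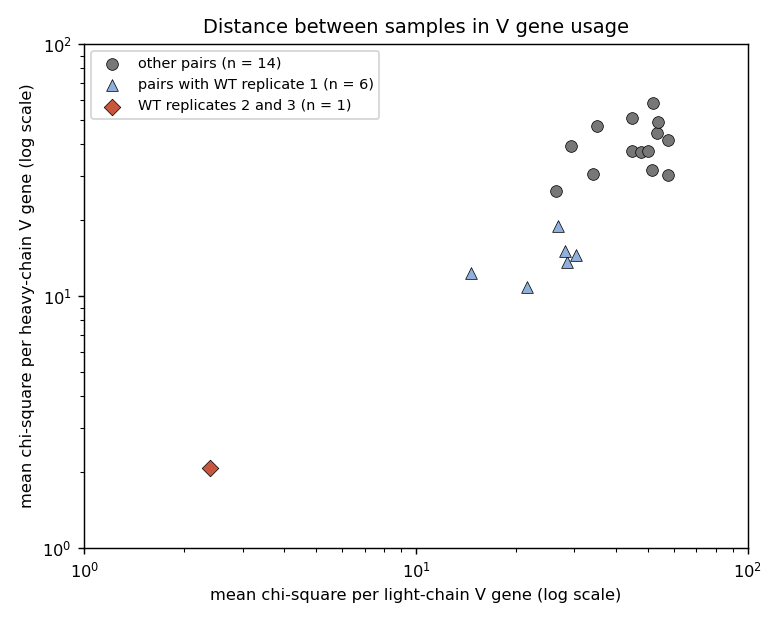
Mean chi-square per gene between each of the 21 pairs of samples, for light-chain V genes (x axis) and heavy-chain V genes (y axis), both on log scales. WT replicates 2 and 3 (red diamond) lie at 2.39 and 2.09, below all 20 other pairs. Pairs with WT replicate 1 (triangles) rest on fewer counts. Each mean takes in genes with a summed count of 20 or more in the pair.

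Usage was uneven, and the leading gene of every sample was Igkv15-103 or Iglv1. Igkv15-103 (ENSMUSG00000076523), the only included gene of its family, took 8.61%, 9.08%, 9.04% and 14.3% of the light-chain V counts in WT replicates 1 to 4 and 6.66%, 10.3% and 8.44% in Trpc1-/- replicates 1 to 3. It led in 5 samples, and WT replicate 4 was the highest. Iglv1 (ENSMUSG00000076934) took 7.50%, 8.27%, 8.29% and 6.51% in WT and 9.78%, 7.40% and 8.98% in Trpc1-/- samples, and led in Trpc1-/- replicates 1 and 3. The genotypes overlapped in both genes.

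The next kappa genes by mean share were Igkv1-110 (4.31%), Igkv10-96 (3.94%), Igkv1-117 (3.34%), Igkv6-23 (2.86%), Igkv19-93 (2.57%), Igkv4-57 (2.54%), Igkv5-39 (2.48%) and Igkv14-111 (2.29%). With Igkv15-103 and Iglv1 these 10 genes took 41.9% of the counts on average, and the same 10 led when shares were divided by annotated exon length (10 of 10). The median gene took 0.55%, and 47 genes took less than 0.5%. Between neighbours in this order the spread between samples was wider than the step. Igkv10-96, for example, ranged from 2.60% to 5.18%, and averaged 4.54% ± 0.70 over the 4 WT samples and 3.14% ± 0.53 over the 3 Trpc1-/- samples (SD).

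**Figure D2:**
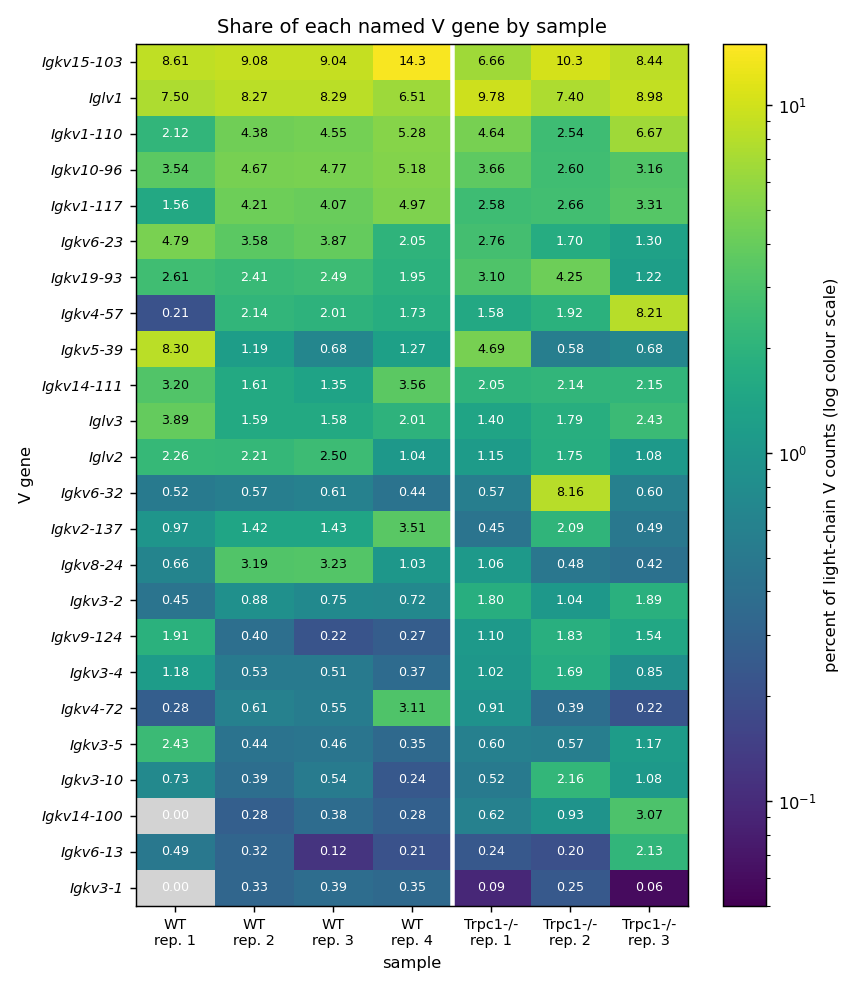
Percent of light-chain V counts (colour, log scale, with the value printed; grey is 0) for the 24 named V genes (rows, by mean share) in each sample (columns; WT left of the white line). Shares are not divided by gene length. Igkv15-103 and Iglv1 are high in all 7 samples, WT replicates 2 and 3 look alike, and single bright cells mark Igkv6-32 in Trpc1-/- replicate 2 (8.16%) and Igkv4-57 in Trpc1-/- replicate 3 (8.21%).

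The kappa V genes lie on chromosome 6 over 3 Mb upstream of the constant gene Igkc (chr6:70726435-70726966, plus strand, GRCm38). The nearest included gene was Igkv3-1 (chr6:70703578-70704177), 22.3 kb away, and the farthest was Igkv2-137 (chr6:67555497-67556216), 3170 kb away. Of the 96 kappa genes, 35 have the orientation of Igkc, in which joining deletes the DNA between V and J, and 61 have the opposite orientation, in which joining inverts it. Igkv15-103 (chr6:68437440-68437925) lies 2289 kb from Igkc in the same orientation, and Igkv10-96 (chr6:68631963-68632442) lies 2094 kb away in the opposite one.

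The genes of opposite orientation took 56.2%, 57.8%, 58.2% and 45.6% of the kappa V counts in WT and 60.4%, 54.3% and 52.1% in Trpc1-/- samples. WT replicate 4, where Igkv15-103 was high, was the lowest. The 48 kappa genes farthest from Igkc took 51.0%, 54.8%, 54.6% and 67.6% in WT and 51.3%, 53.5% and 52.1% in Trpc1-/- samples, and WT replicate 4 was the highest. The difference between genotypes was -4.68 percentage points (57.0% ± 7.29 in WT, n = 4; 52.3% ± 1.15 in Trpc1-/-, n = 3; SD; exact permutation P = 0.429). It was -6.67 points without WT replicate 1, where the exact permutation P was 0.1, the smallest possible with 3 against 3, and -1.14 points without WT replicate 4. For orientation it was 1.12 percentage points (exact permutation P = 0.83).

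**Figure D3:**
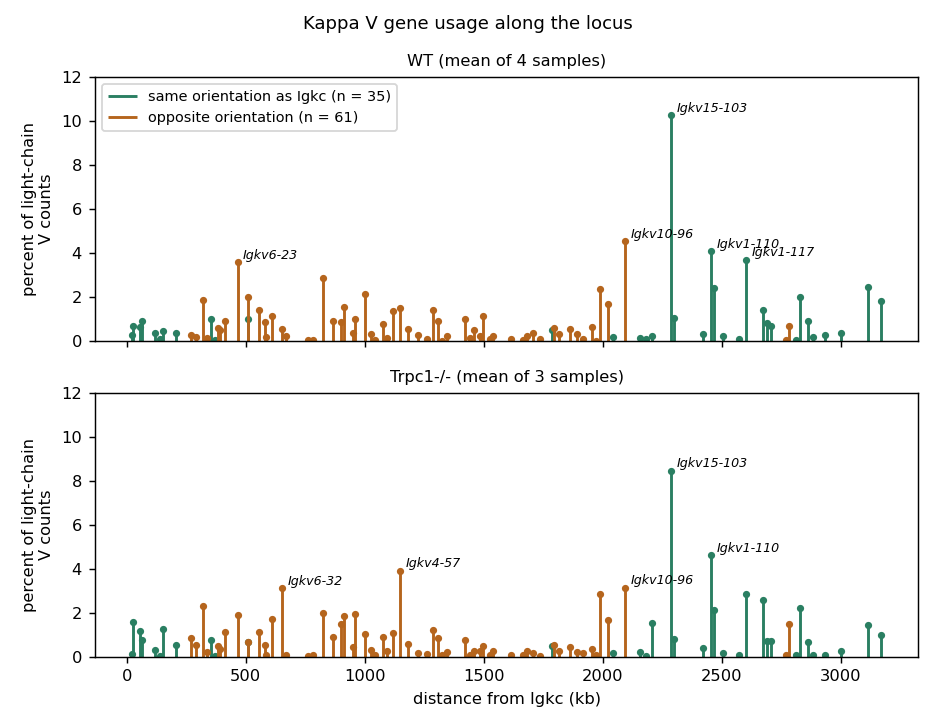
Mean share of light-chain V counts (y axis, percent) of each of the 96 kappa V genes against its distance from Igkc (x axis, kb), in WT (top, 4 samples) and Trpc1-/- samples (bottom, 3 samples). Green stems have the orientation of Igkc (35 genes) and brown stems the opposite one (61 genes). Igkv15-103 is the tallest stem in both panels, and genes with a mean above 3% are named.

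The lambda locus on chromosome 16 gave 12% of the light-chain V counts in both genotypes. The 3 lambda genes together took 13.7%, 12.1%, 12.4% and 9.56% in WT replicates 1 to 4 and 12.3%, 10.9% and 12.5% in Trpc1-/- replicates 1 to 3. The 95% Wilson intervals, which cover counting error only, were widest in WT replicate 1 (12.4% to 14.95%), and that of WT replicate 4 (9.14% to 10.0%) lay below all others. The means were 11.9% ± 1.71 in WT and 11.9% ± 0.85 in Trpc1-/- samples (SD, n = 4 and 3; exact permutation P = 1). The lambda constant genes Iglc1 to Iglc3 took a higher share of the constant counts than lambda did of the V counts, 16.9%, 14.4%, 13.8% and 12.05% in WT and 15.8%, 15.9% and 15.6% in Trpc1-/- samples. WT replicate 4 was the lowest by both measures.

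Iglv1 (chr16:19085017-19085500, minus strand) held most of the lambda counts in every sample. Iglv2 (chr16:19260401-19260859), which is 96.3% identical to it, took 2.26%, 2.21%, 2.502% and 1.04% of the light-chain V counts in WT and 1.15%, 1.75% and 1.08% in Trpc1-/- samples. Iglv3 (chr16:19241207-19241690), which is only 57.7% identical to Iglv1, took 3.89%, 1.59%, 1.58% and 2.01% in WT and 1.40%, 1.79% and 2.43% in Trpc1-/- samples. The log2 fold change (logFC, Trpc1-/- over WT, TMM-scaled) in edgeR was 0.45 (SE 0.39) for Iglv1, -0.28 (SE 0.45) for Iglv2 and 0.25 (SE 0.30) for Iglv3, and the adjusted P values were 0.680, 0.830 and 0.767. The logFC of Iglv1 was 0.16 without WT replicate 1. The sign for Iglv2 turned without WT replicate 3, and that for Iglv3 without Trpc1-/- replicate 3 and when genes were scaled to the light-chain V total.

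**Figure D4:**
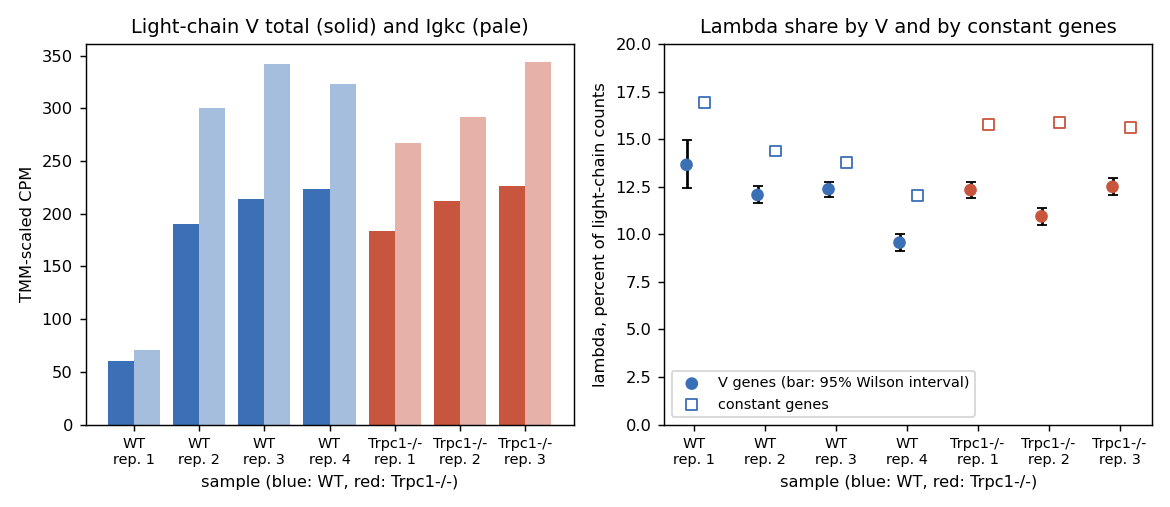
Left, TMM-scaled CPM of the 99 light-chain V genes together (solid bars) and of Igkc (pale bars) in each sample; right, lambda as a percent of light-chain V counts (filled circles with 95% Wilson intervals) and of light-chain constant counts (open squares). WT is blue and Trpc1-/- red. WT replicate 1 is low on the left (60.5 and 71.1 CPM), and the lambda share lies between 9.56% and 13.7% in all samples.

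The light-chain V total was 60.5, 190, 214 and 223 CPM in WT replicates 1 to 4 and 183, 213 and 226 CPM in Trpc1-/- replicates 1 to 3. On the log2 scale the genotypes differed by 0.43 (exact permutation P = 0.771), and by -0.016 without WT replicate 1. The constant gene Igkc moved with it, at 71.1 CPM in WT replicate 1 and 267 to 344 CPM in the other samples. B-cell markers summed to 131 CPM in WT replicate 1, 173 to 203 CPM in the other WT samples and 197 to 232 CPM in Trpc1-/- samples. Plasma-cell markers summed to 154, 248 to 270 and 251 to 292 CPM in the same order. Of the 6 tested plasma-cell markers 3 had a positive and 3 a negative logFC, with a median of 0.013.

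Diversity was counted as the effective number of V genes (inverse Simpson index), the number of equally used genes that would give the same concentration. It was 28.2, 31.9, 31.5 and 23.5 in WT and 32.6, 27.9 and 27.2 in Trpc1-/- samples. The groups overlapped, with means of 28.8 ± 3.898 and 29.2 ± 2.99 (SD, n = 4 and 3; exact permutation P = 0.800). The leading gene took 10.3% ± 2.72 in WT and 9.69% ± 0.67 in Trpc1-/- samples (exact permutation P = 0.943). Total level, lambda share, effective number, leading gene, orientation and distal share were tested as 1 family of 6 measures, and each had an adjusted P of 1 in this exact permutation test, whose smallest possible P is 0.0286. With WT replicates 2 and 3 summed, the exact permutation P values lay between 0.4 and 0.9, where the smallest possible is 0.1.

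Single genes were compared on TMM-scaled counts, and genes had to exceed 1 CPM in 2 samples or more. Of the 99 light-chain V genes 59 passed this filter, with 93.2% of the light-chain V counts, and 40 were not tested. In edgeR, 0 of the 59 had an adjusted P under 0.05, as did 0% of all 16429 genes tested, and limma-voom called 0 as well. At an unadjusted P under 0.05 there were 6 of 59, against 10.0% of all genes tested. All 6 were higher in Trpc1-/- samples, as were 4.51% of all genes. The direction depended on the samples and the scaling. Without WT replicate 1 there were 18 (8 higher and 10 lower), against 16.9% of all genes tested, and with V genes scaled to the light-chain V total there were 12 (5 higher and 7 lower), against 10.0%. DESeq2, the tool of the study, called 3 of 59, Igkv9-124, Igkv3-4 and Igkv3-10, against 1.79% of all genes tested. All 3 were higher in Trpc1-/- samples, as were 0.962% of all genes.

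Groups that did not overlap were counted as well. Every Trpc1-/- sample was above every WT sample in CPM for 6 of the 59 genes, against 7.15% of all genes tested, and below for 0 of 59, against 6.42%. By share of the light-chain V counts, which no other gene has, every Trpc1-/- sample was above every WT sample for 5 of the 99 genes and below for 4. The 6 by CPM were Igkv9-124, Igkv3-4, Igkv3-2, Igkv14-100, Igkv14-126 and Igkv6-14, of which the last pair falls outside the rule for named genes and was picked on its values. The median logFC of the 59 genes was 0.18, beside -0.0088 over all genes tested, and 35 of them had a positive sign. Without WT replicate 1 the median was -0.045 with 28 positive, so that the sign of the median depends on this sample.

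Igkv9-124 (ENSMUSG00000096632, chr6:67942074-67942540, 2784 kb from Igkc in the opposite orientation) had the smallest P. Its counts were 55, 81, 58 and 47 in the WT samples and 247, 362 and 342 in the Trpc1-/- samples, in order of replicate. In CPM this was 1.16, 0.764, 0.471 and 0.596 in WT and 2.01, 3.89 and 3.49 in Trpc1-/- samples, with no overlap. The logFC came to 2.09 (SE 0.35); edgeR gave an adjusted P of 0.334 and DESeq2 one of 2.48e-05. Without WT replicate 1 edgeR called it, with a logFC of 2.36 and an adjusted P of 0.0358, as 1 of 52 genes in the table (0.320% of those tested).

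The share of Igkv9-124 gave another order of the samples. It was 1.91%, 0.402%, 0.220% and 0.267% in WT and 1.10%, 1.83% and 1.54% in Trpc1-/- samples, so that WT replicate 1 was the highest of all 7. Its Wilson interval, 1.47% to 2.48% from 55 counts, overlapped those of Trpc1-/- replicates 2 and 3. The other 3 WT samples lay below every Trpc1-/- sample by share. When the V genes were scaled to the light-chain V total of each sample, the logFC fell to 1.34, with an adjusted P of 0.544 in edgeR.

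Igkv3-4 (ENSMUSG00000096715, chr6:70671788-70672377, 54.1 kb from Igkc) had 34, 106, 134 and 65 counts in WT and 230, 335 and 189 in Trpc1-/- samples. This was 0.715, 1.00, 1.09 and 0.825 CPM in WT and 1.87, 3.60 and 1.93 CPM in Trpc1-/- samples. All 3 Trpc1-/- samples were higher than the 4 WT samples, by a logFC of 1.43 (SE 0.29), for which edgeR gave an adjusted P of 0.381 and DESeq2 0.00258. By share, WT replicate 1 (1.18%) overlapped the Trpc1-/- samples (0.853% to 1.69%). Igkv9-124 and Igkv3-4 are also in a gene list that the study drew from these samples, which is therefore no independent evidence.

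Igkv3-5, which ends in the same CDR3 bases as Igkv3-4, had a smaller difference. It was at 1.47, 0.840, 0.991 and 0.787 CPM in WT and 1.09, 1.21 and 2.65 CPM in Trpc1-/- samples, and WT replicate 1 lay above 2 of the 3 Trpc1-/- samples. Its logFC was 0.70 (SE 0.37), 0.18 without Trpc1-/- replicate 3, and -0.073 when scaled to the light-chain V total.

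Igkv3-10 (chr6:70572633-70573230), 96.9% identical to Igkv3-5, was at 0.441, 0.745, 1.15 and 0.533 CPM in WT and 0.953, 4.60 and 2.45 CPM in Trpc1-/- samples. Trpc1-/- replicate 1 lay within the WT range, and Trpc1-/- replicate 2 was the highest. Its logFC of 1.86 (SE 0.54) had adjusted P values of 0.407 (edgeR) and 0.0408 (DESeq2), and was 1.21 without Trpc1-/- replicate 2. In DESeq2 with WT replicates 2 and 3 summed, Igkv9-124 and Igkv3-4 were called, and Igkv3-10 was not. That fit called 2 of 55 V genes, against 90 of all 16327 genes tested.

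Igkv3-2 (chr6:70698449-70699067) did not overlap between genotypes in CPM or in share. Its share was 0.452%, 0.878%, 0.754% and 0.717% in WT and 1.80%, 1.04% and 1.89% in Trpc1-/- samples. Its logFC of 1.31 (SE 0.52) had adjusted P values of 0.477 (edgeR) and 0.219 (DESeq2). When scaled to the light-chain V total it was 1.13 (unadjusted P = 0.0038 and adjusted P = 0.394 in edgeR).

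In the other 3 of the 8 genes 1 or 2 samples stood far above the rest. Igkv14-100 (chr6:68519012-68519477) had 0, 57, 99 and 50 counts in WT and 139, 184 and 680 in Trpc1-/- samples, with a logFC of 2.70 (SE 0.90, edgeR adjusted P = 0.433), and Trpc1-/- replicate 3 was by far the highest. Without that sample the logFC was 1.598. The count of 0 in WT replicate 1 allows a share of up to 0.104% there. Igkv6-32 (chr6:70074024-70074603) had 15, 115, 160 and 78 counts in WT and 129, 1614 and 133 in Trpc1-/- samples, and its logFC of 2.80 (SE 0.99) became 0.35 without Trpc1-/- replicate 2. By share, its other 6 samples lay between 0.444% and 0.606%. Igkv8-24 (chr6:70216858-70217421) had 19, 643, 851 and 181 counts in WT and 239, 94 and 94 in Trpc1-/- samples, with a logFC of -1.59 (SE 0.81, edgeR adjusted P = 0.530). It was high in WT replicates 2 and 3 alone, the pair that shared its V usage, and with these summed the logFC was -1.26.

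**Figure D5:**
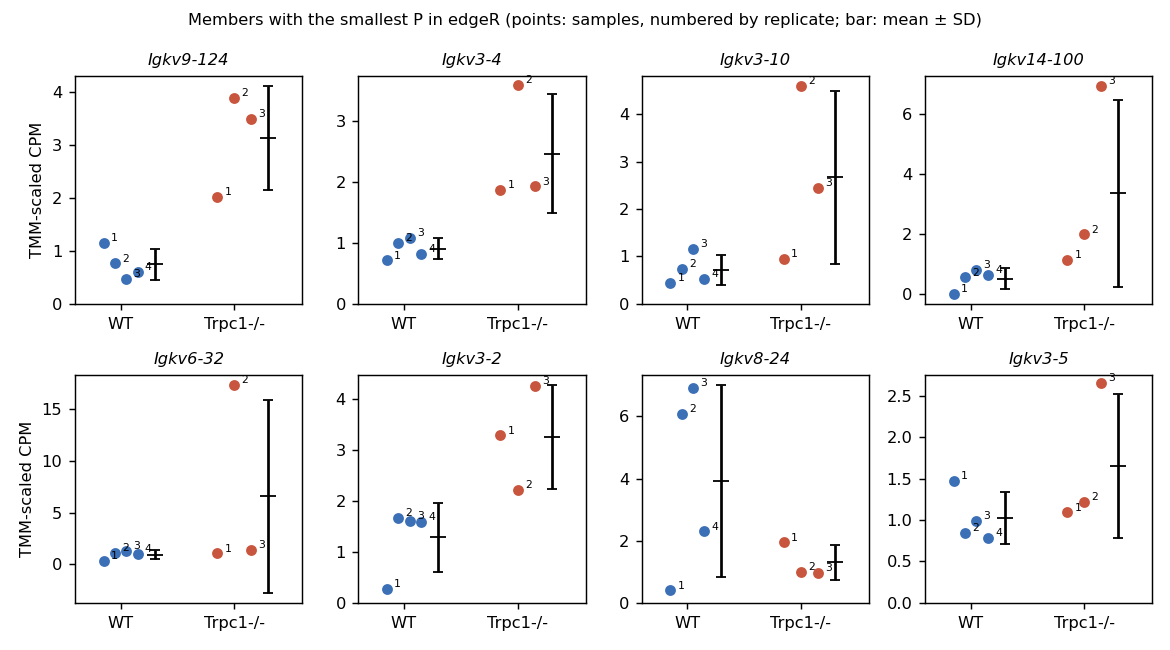
TMM-scaled CPM (y axis, linear, own scale in each panel) of the 8 light-chain V genes with the smallest P in edgeR. Points are samples numbered by replicate, WT blue and Trpc1-/- red, and black bars are the mean ± SD (n = 4 and 3). Igkv9-124, Igkv3-4, Igkv14-100 and Igkv3-2 do not overlap between genotypes, while Igkv6-32 is set by Trpc1-/- replicate 2 alone.

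Other V genes were high in single samples of either genotype. Igkv5-39 took 8.30%, 1.19%, 0.678% and 1.27% in WT and 4.69%, 0.576% and 0.682% in Trpc1-/- samples, so it was high in replicate 1 of each genotype. Igkv4-57 took 0.208%, 2.14%, 2.01% and 1.73% in WT and 1.58%, 1.92% and 8.21% in Trpc1-/- samples. Trpc1-/- replicate 3 was also the highest for Igkv6-13, at 2.13% against 0.118% to 0.486% in the other samples. Igkv4-72 was highest in WT replicate 4, at 3.11% against 0.221% to 0.908% elsewhere.

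Such peaks were counted over the 52 genes with a mean share of at least 0.5%, as a share at least 3 times the median of the 7 samples in the gene's highest sample. There were 2 in WT replicate 1 (Igkv5-39 and Igkv3-5), 1 in WT replicate 3 (Igkv8-24), 1 in WT replicate 4 (Igkv4-72), 2 in Trpc1-/- replicate 2 (Igkv6-32 and Igkv3-10) and 3 in Trpc1-/- replicate 3 (Igkv6-13, Igkv14-100 and Igkv4-57). WT replicate 2 and Trpc1-/- replicate 1 had 0 by this count. It leaves out further high samples of the same gene, such as WT replicate 2 for Igkv8-24 and Trpc1-/- replicate 1 for Igkv5-39. The largest ratio, 14.2, was that of Igkv6-32. The difference between genotypes in peaks was not tested.

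Summed by family, the 96 kappa genes fell into 18 families. Igkv4, the largest with 29 genes, took 9.03%, 14.1%, 14.7% and 13.8% in WT and 12.04%, 10.4% and 18.4% in Trpc1-/- samples. In edgeR 0 of the 17 tested sums (16 kappa families and lambda) were called. The Igkv3 family had 8 included genes, all in the orientation of Igkc and between 22.3 kb and 208 kb (Igkv3-12) from it. It took 5.45%, 3.49%, 3.41% and 3.01% in WT and 4.89%, 6.57% and 6.01% in Trpc1-/- samples, and WT replicate 1 lay within the Trpc1-/- range. Its logFC of 1.01 (SE 0.28) had adjusted P values of 0.395 (edgeR) and 0.0324 (DESeq2). DESeq2 called no other family, against 1.79% of all features in that table. The Igkv3 sum includes Igkv3-4 and Igkv3-10, which DESeq2 called as single genes, so it is not independent of them. The Igkv3 sum without these genes was not tested.

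The 5 tested Igkv3 genes, Igkv3-2, Igkv3-4, Igkv3-5, Igkv3-10 and Igkv3-12, all had a positive logFC, from 0.65 (Igkv3-12) to 1.86. The other 3 did not pass the filter. Among them, Igkv3-1, the V gene nearest to Igkc, was at 0, 66, 102 and 62 counts in WT and 21, 49 and 13 in Trpc1-/- samples, and WT replicate 1 excepted, it was lower in Trpc1-/- samples. The Igkv9 family took 2.61%, 2.54%, 2.15% and 1.92% in WT and 2.95%, 5.93% and 3.895% in Trpc1-/- samples, without overlap. Here the logFC was 1.21 (SE 0.40), and the adjusted P values were 0.434 (edgeR) and 0.0924 (DESeq2). The logFC of Igkv3 and of Igkv9 was positive in every fit of the family sums. The Igkv9 sum includes the gene with the smallest P, so it is not independent of that gene. The sum without that gene was not tested. The Igkv7 family, with 1 included gene, went the other way without overlap, and its sum was not tested. It took 0.521%, 0.129%, 0.110% and 0.0853% in WT and 0.0712%, 0.0354% and 0.0767% in Trpc1-/- samples.

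The 40 untested genes were fitted with a filter of 10 counts in 2 samples. There 0 of the 99 genes were called by edgeR, while 9 passed an unadjusted P of 0.05, against 7.82% of the 23708 genes then tested. Of these, 8 were higher in Trpc1-/- samples (3.41% of all genes). Beyond the genes above, these 8 took in Igkv9-123 (0, 9, 7 and 7 counts in WT; 20, 23 and 14 in Trpc1-/-), and the only lower one was Igkv7-33 (15, 26, 29 and 15 counts in WT; 16, 7 and 17 in Trpc1-/-). Both names were picked on these values. Igkv9-123 had fewer than 10 counts in every WT sample. It met the filter only through the Trpc1-/- samples, where it was high, so the filter itself favoured its place among the 8.

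The companion genes of light-chain assembly were looked at beside the V genes. Of 35 tested, 0 were called by edgeR or by DESeq2, while edgeR put 2 of 35, against 10.0% of all genes, at an unadjusted P under 0.05: Pou2af1, a B-cell coactivator of octamer-dependent immunoglobulin transcription, and Ung, the uracil glycosylase of somatic mutation and class switching. Pou2af1 was at 26.4, 36.1, 37.6 and 29.1 CPM in WT and 38.5, 42.3 and 41.3 CPM in Trpc1-/- samples, without overlap (logFC 0.33, SE 0.13, edgeR adjusted P = 0.475). Of the light-chain constant and joining genes all 9 tested had a positive logFC, with a median of 0.27 and no call. Their sum was lowest in WT replicate 1 (88.9 CPM against 327 to 419). In WT replicates 2 to 4 Igkc was at 300, 342 and 323 CPM, against 267, 292 and 344 CPM in Trpc1-/- samples. Iglc1 was at 26.9, 29.2 and 21.6 CPM there, against 32.3, 29.1 and 37.2 CPM. Without WT replicate 1 the values thus did not all go the same way.

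The genes of the recombination machinery were detected in every sample. Rag1, the catalytic subunit of the recombinase, was at 40.7, 54.3, 57.9 and 38.0 CPM in WT and 56.8, 54.9 and 37.5 CPM in Trpc1-/- samples, with a logFC of 0.06 (SE 0.20). Of the 10 recombination and joining genes 8 had a positive sign, with a median logFC of 0.057. The list kept for the surrogate light chain, the stand-in for the light chain in pre-B cells, was led by Vpreb3 and Igll1. Of its 3 tested genes 0 were called, and Vpreb1, at 2.501, 4.37, 4.72 and 4.30 CPM in WT and 5.55, 5.66 and 5.12 CPM in Trpc1-/- samples, did not overlap (logFC 0.45, SE 0.21, edgeR adjusted P = 0.515). Igll1 did not overlap either, at 6.22, 10.5, 12.3 and 12.1 CPM in WT and 12.6, 12.7 and 12.8 CPM in Trpc1-/- samples. With Pou2af1, Tcf3 and Ung, these were the tested companion genes higher in every Trpc1-/- sample. Of all genes tested, 7.15% were higher in this way.

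Markers of other cells were compared in the same way. All 6 erythroid markers were higher in Trpc1-/- samples at an unadjusted P under 0.05 (edgeR), as were 4.51% of all genes tested. DESeq2 called 3, against 1.79% of all genes tested. The erythroid markers summed to 11858 to 22798 CPM in WT and 26180 to 36090 CPM in Trpc1-/- samples, lowest in WT replicate 1. The 6 B-cell markers had a median logFC of 0.39, with 0 called. In edgeR 1 of them had an unadjusted P under 0.05, against 10.0% of all genes tested. The 6 chondrocyte markers all had a negative logFC (median -0.42), with 0 called. Of these, 1 had an unadjusted P under 0.05 in edgeR, beside the same 10.0%. The chondrocyte markers summed to 2469 and 2652 CPM in Trpc1-/- replicates 1 and 3 and to 4330 to 4747 CPM in the other samples. The part of cell makeup in the V gene values was not tested.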

How the data were processed

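Total RNA depleted of ribosomal RNA was sequenced as stranded, paired 75-base reads. The authors trimmed with Cutadapt 2.5, aligned to GRCm38 with HISAT2 2.1.0, and deposited estimated counts per gene made from StringTie 2.0.3 coverage, as whole numbers, not normalized. Sharing of reads between similar V genes was thus fixed upstream. The labels' 4 WT and 3 Trpc1-/- samples were used, although the methods give 3 and 4. The members and lists were chosen with earlier results of these data known.

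Genes above 1 CPM in 2 or more samples (16429) were normalized by TMM and tested with edgeR 4.0.16 (quasi-likelihood, genotype alone, Benjamini-Hochberg over all genes). The study's tool DESeq2 1.42.0 and limma 3.58.1 were alternatives. SEs came from edgeR's F statistic. Measures of usage were tested by exact two-sided permutation over 35 splits. Fits were tested on simulated data. Named genes were the lambda genes, the 10 highest shares, the 8 smallest P, the 5 largest peaks, 2 genes of the study's list, the edge of the count rule, and the nearest and farthest kappa genes. Nothing says that samples of a group came from separate litters, so P values measure the spread between these pools. The labels do not say whether the 3 shared replicate numbers pair samples, and the main fits did not pair them. Total counts were 52142451 to 118254070 per sample. A floor of 3 counts was 0.0244 to 0.063 CPM. Floors and intervals cover counting error only. Recombination signals and promoters were not analysed here.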

Additional observations from a re-analysis of the deposited data

Results flagged for a closer look

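In each measure below, 1 of the 4 WT samples lay far from the other 3. The value is its gap to the nearest of the others divided by the range of the 4 (Dixon's ratio), and each lay above the 95% critical value, which chance exceeds in about 1 in 20 groups. The log2 CPM of the light-chain V total had a ratio of 0.877, with WT replicate 1 low. WT replicate 1 was also the distant sample for the shares of Igkv5-39 (0.923), Igkv9-124 (0.892) and Igkv3-5 (0.947), where it was high, and of Igkv3-1 (0.847), where it was at 0. WT replicate 4 was the distant sample for the share of the leading gene, which in WT is Igkv15-103 (0.919 for both), and for Igkv4-72 (0.882), high in each, and for the share of kappa V counts in the opposite orientation (0.846), where it was low. Over all 99 light-chain V genes, 12 had such a share (12.1%, beside 5% by chance), and WT replicates 2 and 3, being nearly alike, narrow the spread against which the others are read.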

How the results depend on the processing

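No measure of usage had an exact P under 0.05, but fits with fewer than 7 samples could not reach it (smallest possible 0.1 with 3 and 3, 0.25 with 3 pairs). All 3 Trpc1-/- samples and WT replicates 1 and 2 have mouse numbers in the 1300s, and WT replicates 3 and 4 in the 1700s. Number series and genotype are thus partly confounded, and the labels do not say what the series stand for. The lambda share (difference 0.0092 points) turned with all light-chain V genes (-0.0055), with mouse numbers in the 1300s alone (-0.938) and with the replicate block (-0.774), and ranged from -0.774 to 0.589 with samples left out in turn. The effective number turned to -0.82 in the 1300s and -1.31 with the block (left out -1.31 to 1.497). The leading gene's share turned to 0.951 by family sums, 0.843 in the 1300s and 0.777 with the block (left out -1.13 to 0.777), and the opposite orientation to -1.45 and -1.83 (left out -1.83 to 2.86). With samples left out, the total level ranged from -0.016, without WT replicate 1, to 0.612, and was 0.945 in the 1300s. The distal share ranged from -6.67 to -1.14, and was -0.588 in the 1300s. The turns in effective number and orientation came without WT replicate 4 or Trpc1-/- replicate 1. The cause was not tested.

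DESeq2 called 3 V genes and 1 family, against 0 and 0 in edgeR. With the replicate block DESeq2 called 2 of 58 V genes, against 54 of all 16303 genes tested. These were Igkv9-124 and Igkv14-100, at DESeq2 adjusted P values of 0.0193 and 0.00334, while Igkv3-4 and Igkv3-10 were at 0.119 and 0.103. With WT replicates 2 and 3 summed, DESeq2 called 2 of 55 V genes, against 90 of all 16327 genes tested. In edgeR 0 to 1 were called with samples left out, the 1 without WT replicate 1. With samples left out, Iglv2 ranged from -0.56 to 0.052 and Iglv3 from -0.064 to 0.49. Iglv3 turned to -0.23 when scaled to the light-chain V total, as did Igkv3-5 (-0.073). The scaling, the summed samples and DESeq2 with the block were chosen after seeing the data. Same-numbered samples had correlations of -0.452, -0.341 and -0.004 in their deviations from the group means. Such deviations sum to 0 within a group, so these values cannot decide whether the numbers pair samples. The block called 0 V genes in edgeR. The depth of WT replicate 1 limits genes under 0.104% of its V counts.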
